A study of Homo sapiens with 2 samples.

Results

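The genes for Polycomb repressive complex 2 (PRC2) were examined as possible binding places of the transcription factor E2F1. They were 7 genes: EZH2, EZH1, EED, SUZ12, RBBP4, RBBP7 and JARID2. The members were the genes named in the list, and their peaks were those that reached within 2 kb of 1 given start site per gene on the human genome build hg19. This rule took 8 of the 28734 peaks of the library. Per the labels, E2F1 had been immunoprecipitated with a pair of antibodies from LNCaP-abl, a prostate cancer line derived from LNCaP that grows without androgen and models castration-resistant disease, and the bound DNA was sequenced (ChIP-seq). The cells grew in medium with 10% charcoal-stripped serum and spent 3 days without androgen before harvest, and no genetic change or drug was part of the comparison. The series also holds an input without antibody from the same cells, which is not analysed here. No comparison with input was made here, and whether the authors' peaks and scores were called against it was not given. There is 1 library with peaks and no replicate, so no value has an error from replicates and no test between genes was made.

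PRC2 places methyl groups on lysine 27 of histone H3, a mark of silenced genes. EZH2 or its paralogue EZH1 carries the methyltransferase activity, EED binds the methylated mark and stimulates the enzyme, SUZ12 holds the complex together, and the WD40-repeat proteins RBBP4 and RBBP7 bind histones. JARID2 is an accessory subunit that helps bring the complex to chromatin. E2F factors work with the retinoblastoma protein to control genes for S phase, and EZH2 and EED are known in other cells as genes under this pathway. High EZH2 is a known feature of advanced prostate cancer. The stated design of the series is about histone marks and PRC2 proteins on chromatin, whereas its title and the sample labels name E2F1, and the target is given here as labelled. PRC2 here is a set of target genes, and where the complex itself sits on chromatin is not analysed here.

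The DNA at these starts is shown first, because E2F proteins recognise a short GC-rich sequence with a run of T at one end. All 7 genes were matched by symbol in a table of RefSeq promoters of the build GRCh38.p14, each 300 bases long with 250 bases before the start. The lines below run 5′ to 3′ along the gene from 200 bases before to 10 bases after its first RefSeq start, and capitals mark an E2F match. The genes with a match come first in the order EZH2, EZH1, SUZ12 and RBBP4, on GRCh38.p14 at chr7:148884282-148884491 (minus strand), chr17:42745031-42745240 (minus), chr17:31936807-31937016 (plus) and chr1:32651008-32651217 (plus).
EZH2: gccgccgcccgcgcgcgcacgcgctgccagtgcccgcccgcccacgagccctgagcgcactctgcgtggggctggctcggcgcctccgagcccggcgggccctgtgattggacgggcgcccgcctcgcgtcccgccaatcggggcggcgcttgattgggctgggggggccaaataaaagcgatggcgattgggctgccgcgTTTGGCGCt
EZH1: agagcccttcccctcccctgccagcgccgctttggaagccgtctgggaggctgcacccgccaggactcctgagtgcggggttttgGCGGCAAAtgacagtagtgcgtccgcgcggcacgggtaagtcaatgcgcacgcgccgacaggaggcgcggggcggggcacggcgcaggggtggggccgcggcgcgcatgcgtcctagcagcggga
SUZ12: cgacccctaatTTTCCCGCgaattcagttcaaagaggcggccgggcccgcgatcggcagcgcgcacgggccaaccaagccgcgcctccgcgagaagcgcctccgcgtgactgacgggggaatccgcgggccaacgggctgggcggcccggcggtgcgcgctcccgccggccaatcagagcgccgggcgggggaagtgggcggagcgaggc
RBBP4: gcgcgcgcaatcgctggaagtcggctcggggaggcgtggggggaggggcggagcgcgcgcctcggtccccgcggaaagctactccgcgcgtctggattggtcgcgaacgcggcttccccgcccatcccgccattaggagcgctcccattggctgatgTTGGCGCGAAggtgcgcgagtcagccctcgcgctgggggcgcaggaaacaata
The stretches of EED at chr11:86244553-86244762 (plus), JARID2 at chr6:15245869-15246078 (plus) and RBBP7 at chrX:16870353-16870562 (minus) are shown for contrast, since they hold no such match.
EED: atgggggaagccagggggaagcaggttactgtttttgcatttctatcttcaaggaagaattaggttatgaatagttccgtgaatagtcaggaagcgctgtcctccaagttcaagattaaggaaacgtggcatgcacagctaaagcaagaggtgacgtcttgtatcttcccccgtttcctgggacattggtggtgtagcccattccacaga
JARID2: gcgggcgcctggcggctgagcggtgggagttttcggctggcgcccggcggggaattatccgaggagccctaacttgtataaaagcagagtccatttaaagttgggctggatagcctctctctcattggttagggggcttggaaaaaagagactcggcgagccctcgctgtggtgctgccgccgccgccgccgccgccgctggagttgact
RBBP7: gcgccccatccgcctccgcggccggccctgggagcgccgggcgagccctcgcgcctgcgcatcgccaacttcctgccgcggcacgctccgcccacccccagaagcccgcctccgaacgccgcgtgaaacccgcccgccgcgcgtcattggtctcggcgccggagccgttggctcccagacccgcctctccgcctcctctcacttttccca
These positions belong to another build than the peaks. The RefSeq starts need not be the bases that the hg19 rule uses, so peaks and motifs were not laid on one another base by base.

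The E2F consensus was searched on both strands as TTTCCCGC, TTTGGCGC, TTTCGCGC and TTTGCCGC, and its shorter core as the same letters without the first T. Each consensus match is therefore also a core match. At the first start, 3 of 7 members held a consensus match, against 3.32% of all 35116 promoters in the table. EZH2 had TTTGGCGC from base 2 to base 9 of the transcribed side, EZH1 had TTTGCCGC on the opposite strand from -115 to -108, and SUZ12 had TTTCCCGC from -189 to -182, counting bases before the start as negative. RBBP4 had no consensus match but 2 core matches on opposite strands that shared 4 bases, together spanning -43 to -34. With RBBP4, 4 of 7 members had a core match at the first start, against 12.97% of all promoters. RBBP7 had 1 core match only at its second RefSeq start, which lies 499 bases downstream of the first. That match ran from -93 to -87 before the second start and shared 1 base with a CCAAT match. Neither EED nor JARID2 held a core match in any of their windows.

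The remaining motifs were searched as CCAAT (bound by NF-Y), GGGCGG (SP1), TTTGAA and TTCGAA (the CHR element of cell-cycle promoters), CCGGAA (ETS) and GCATGCGC (NRF1). CCAAT was present at the first start in 6 of 7 members, all but EZH1, against 34.6% of all promoters. EZH2 held 4 CCAAT matches, between -94 and -9. SP1 letters were present in 6 of 7 members, all but EED, against 44.95% of all promoters, and RBBP7 held 8 of them. SUZ12 alone had a CHR match, from -173 to -168 (16.4% of all promoters), and EZH1 alone an NRF1 match, from -13 to -6 (3.05% of all promoters). ETS letters were found in 0 of 7 members at the first start and at the second start of RBBP7 (17.2% of all promoters). Over promoters of protein-coding genes alone, the shares were 4.10% for the E2F consensus, 16.07% for the E2F core and 34.7% for CCAAT. For SP1 the share was 56.3%, for CHR 13.7%, for ETS 21.2% and for NRF1 3.74%. A match describes letters in a window and is not a measured site.

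**Figure D1:**
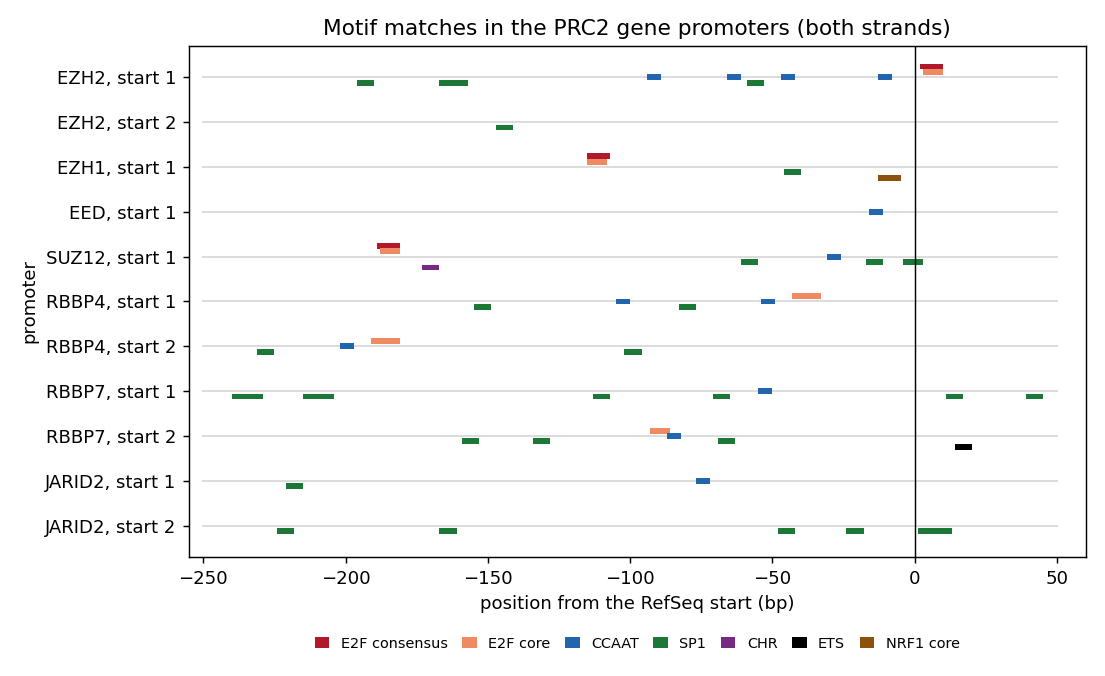
Motif matches on both strands in the RefSeq promoters of the 7 genes (rows; genes with a second RefSeq start have 2 rows), by position from the start in bp on the x axis. Bars are matches coloured by motif. E2F consensus bars are seen for EZH2, EZH1 and SUZ12, E2F core bars without a consensus for RBBP4 and the second start of RBBP7, and none for EED and JARID2.

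Most of these promoters were rich in G, C and CpG. GC content was above the median of all promoters, 58.7%, in 6 of 7 members, from 64.0% in JARID2 to 78.3% in RBBP7. EED was the exception with 52.3%. The ratio of observed to expected CpG was above the all-promoter median of 0.58 in all 7, from 0.78 in EED to 1.13 in RBBP4.

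Of the other accessory genes of PRC2, the list AEBP2, PHF1, MTF2, PHF19, EPOP, LCOR and EZHIP was used, and 6 of 7 were matched in the promoter table, all but EPOP. A consensus E2F match was present in 3 of these 6: AEBP2 (TTTGCCGC from -150), MTF2 (TTTCCCGC on the opposite strand from base 6) and PHF19 (TTTCCCGC on the opposite strand from -152). EZHIP had a core match from base 6. PHF1 and LCOR had none. E2F1 peaks at these genes are not analysed here, because no hg19 start sites of them were at hand.

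E2F1 was called at all 7 PRC2 genes. Each of the 7 had at least 1 peak within 2 kb of its start, while a window of that size meets a peak at 4.004% of all positions of chromosomes 1 to 22 and X. The given start base itself lay inside a peak in 7 of 7 genes, against 0.497% of all positions. These shares are over all positions between the first and the last peak of each chromosome. Promoters are not random positions, and the share of all hg19 promoters with a peak is not analysed here. The genes were also chosen with earlier results of these data known. For both reasons 7 of 7 is not shown to be particular to PRC2. In 6 of 7 genes there was 1 peak in the window, and in JARID2 there were 2.

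**Figure D2:**
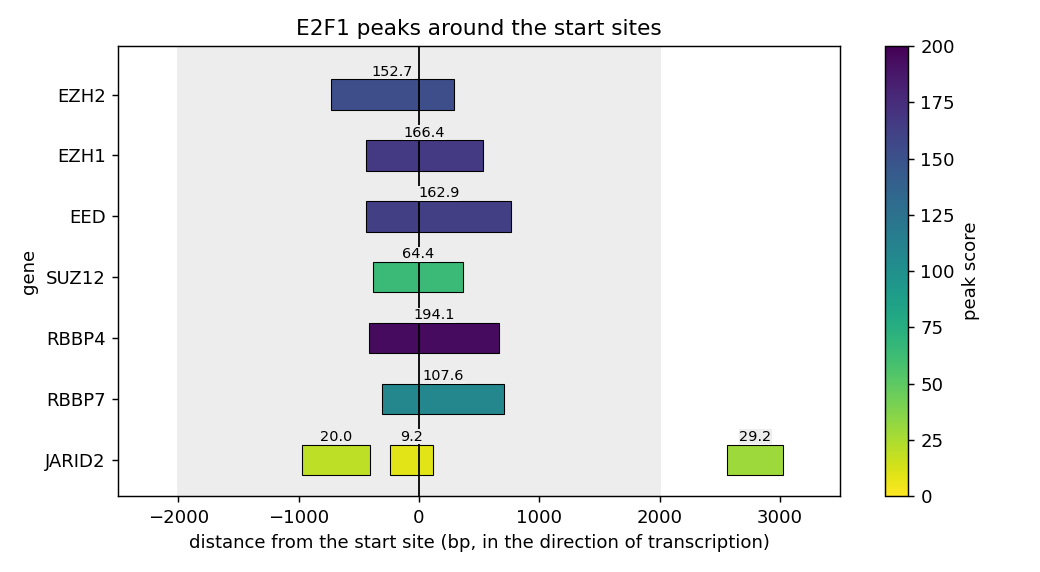
E2F1 peaks (bars) within 5 kb of the start of each PRC2 gene (rows), by distance from the start in bp along the direction of transcription; colour and the number above each bar give the authors' score, and the grey field is the window of 2 kb. Single wide peaks lie across the start in 6 genes, while JARID2 has 3 short, pale bars, 1 of them outside the window.

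The peaks differed widely in score. The score is the authors' value for each peak, taken as higher for stronger peaks. It has no stated scale and is used only to rank peaks within this list, where it ran from 2.41 to 333 with a median of 23.5. Percentiles below give the share of all peaks with no higher score. Over the members, taking the highest peak in each window, the median percentile was 95.5, against 50 for the list by construction. Peaks at other promoters were not ranked apart from the rest of the list, so high percentiles are not shown to be particular to PRC2. Of the 7, 4 were in the top 5% of peaks (RBBP4, EZH1, EED and EZH2), 2 were between the median and the top 10% (RBBP7 and SUZ12), and JARID2 was below the median.

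**Figure D3:**
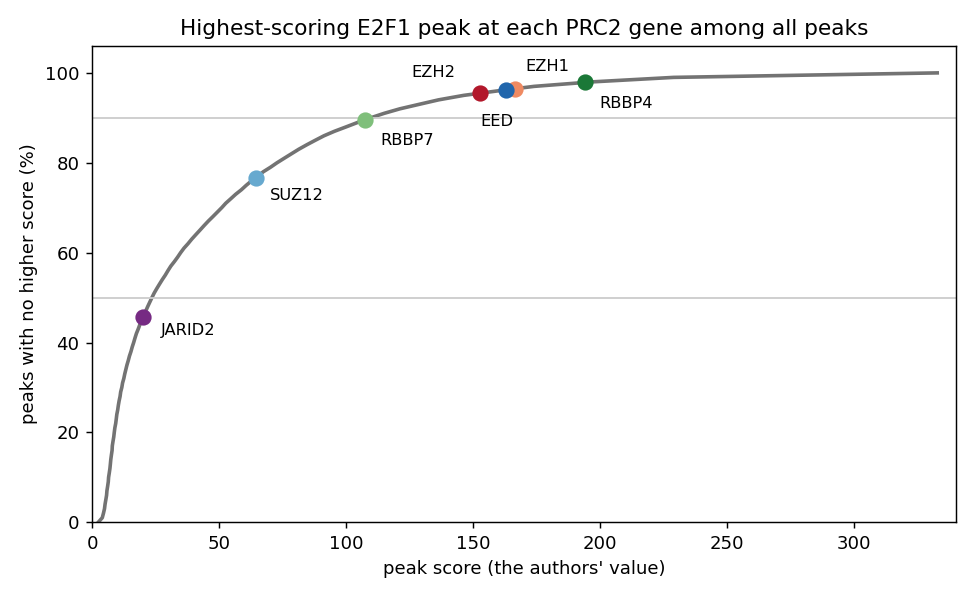
Share of all peaks with no higher score (y axis, %) against peak score (x axis, the authors' value); the grey curve is the whole list, dots are the highest peak within 2 kb of each PRC2 gene, and thin lines mark 50 and 90%. RBBP4, EZH1, EED and EZH2 sit together near the top of the curve, RBBP7 just under the 90% line, SUZ12 at 76.6% and JARID2 at 45.6%.

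The methyltransferase genes had peaks close in score and width but placed differently around the start, and the EED score lay between theirs. On chromosome 7, EZH2 (start 148581441, minus strand) had a peak from 148581150 to 148582174, with a score of 153, rank 1287 and percentile 95.5. It was 1025 bp wide and reached 733 bp upstream and 291 bp downstream of the start, so most of it lay on the side away from the gene. EZH1, on chromosome 17 (start 40897071, minus strand), had a peak from 40896536 to 40897515, with a score of 166, rank 1014 and percentile 96.5. It was 980 bp wide, and its midpoint was 46 bp downstream of the start. EZH2 and EZH1 are paralogues, and EZH2 is the form known to be high in dividing cells. Their scores lay 1 percentile apart or less, and without a replicate their order cannot be told apart.

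EED and SUZ12, the genes of the structural core, did not lie close together. EED had a peak on chromosome 11 from 85955367 to 85956574 across its start at 85955806 (plus strand), with a score of 163, rank 1073 and percentile 96.3. At 1208 bp it was the widest of the 8 peaks and reached 768 bp into the gene. SUZ12 had a peak on chromosome 17 from 30263663 to 30264411 across its start at 30264044 (plus strand), with a score of 64.4, rank 6719 and percentile 76.6. It was 749 bp wide and nearly centred on the start, with its midpoint 7 bp upstream. SUZ12 thus had the lowest score of the 6 core genes. EED ranked high without an E2F match in its RefSeq window, and SUZ12 ranked lower with a full consensus match. Elsewhere, EZH2, EZH1 and RBBP4 had a core match at the first start and percentiles from 95.5 to 97.9. RBBP7 and JARID2 had none there and were at 89.6 and 45.6, but RBBP7 had a core match at its second start. A RefSeq window of 300 bases is shorter than each of the 8 peaks, so matches under the peaks outside these windows were not searched for. Whether a match goes with a higher score was not tested.

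The histone-binding genes RBBP4 and RBBP7 held the highest score and the next to lowest score of the 6 core genes. RBBP4, on chromosome 1, had a peak from 33116332 to 33117412 across its start at 33116749 (plus strand), with a score of 194, rank 604 and percentile 97.9. This was the highest of the 7 genes. In the RefSeq table ZBTB8OS lies next to RBBP4 on the opposite strand, with its nearest start 276 bases upstream, so the peak cannot be assigned to 1 of these genes. RBBP7, on chromosome X, had a peak from 16887826 to 16888842 across its start at 16888537 (minus strand), with a score of 108, rank 2992 and percentile 89.6. It reached 711 bp into the gene and 305 bp upstream. Among the 582 peaks of chromosome X it ranked 38, a percentile of 93.6 within that chromosome.

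JARID2 stood apart in shape and score. Its start at 15246206 on chromosome 6 (plus strand) lay in a 361 bp peak from 15245963 to 15246323 with a score of 9.24, rank 22431 and percentile 21.9. A second peak in the window, from 15245234 to 15245797, was 564 bp wide and lay wholly upstream, ending 409 bp before the start, with a score of 19.97, rank 15626 and percentile 45.6. The gap between both was 165 bp. A further peak just outside the window, from 15248768 to 15249236, began 2562 bp downstream and had the highest score of these, 29.2 (percentile 55.4). JARID2 is known to have several transcripts, and in the RefSeq table its second start lies 2786 bases downstream of the first, on GRCh38.p14. JARID2-DT, a divergent transcript, starts on the opposite strand 695 bases upstream of the first RefSeq start. Which of these starts each peak belongs to was not tested.

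The peaks of the core genes were wide as well as high. The highest peaks of all 7 genes were wider than the median of all peaks, 418 bp, with a median of 1017 bp. A width above 1000 bp was found in 4 of 7 (EED, RBBP4, EZH2 and RBBP7), against 6.79% of all peaks. That share is not taken over peaks at promoters alone, so wide peaks are not shown to be particular to PRC2. Score and width move together over the list, so each peak was also ranked among peaks within 10% of its own width. By that measure RBBP4 was at percentile 94.9, EED at 89.8, EZH1 at 89.7, EZH2 at 87.5 and RBBP7 at 72.3. SUZ12 was at 43.9 and JARID2 at 15.9, so both scored below the median of peaks as wide as theirs. The median over the 7 genes was 87.5.

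**Figure D4:**
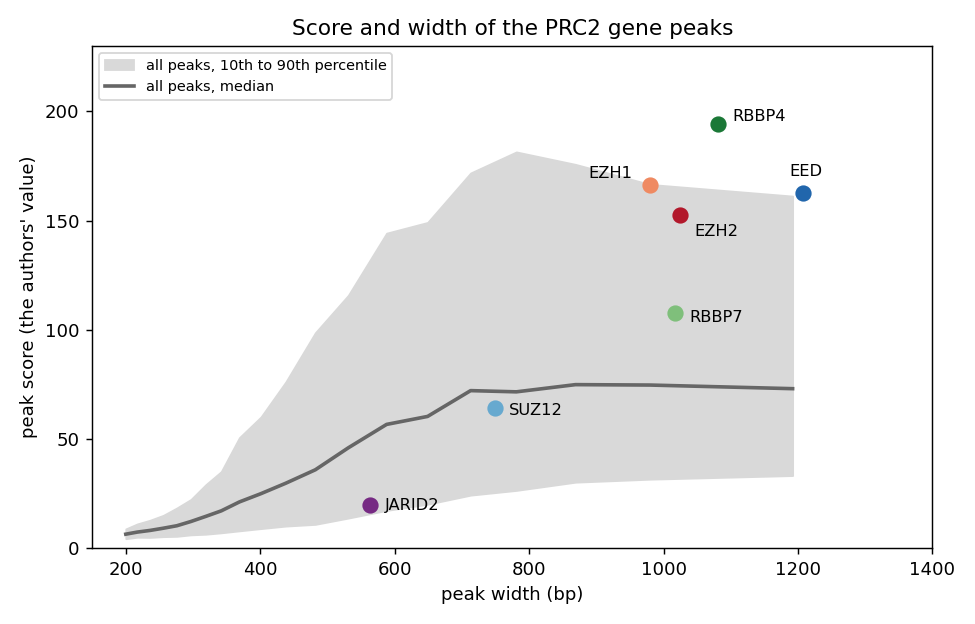
Peak score (y axis, the authors' value) against peak width in bp (x axis) for the highest peak within 2 kb of each PRC2 gene (dots), with the median (line) and the 10th to 90th percentile (grey band) of all peaks in 20 groups by width. RBBP4 lies above the band, EED, EZH1 and EZH2 near its upper edge, RBBP7 inside it, SUZ12 under the median line and JARID2 at the lower part of the band.

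The surroundings of the genes were unlike each other. Measured from edge to edge, the nearest other peak was 15750 bp from the EZH1 peak, 29401 bp from EED, 34584 bp from SUZ12, 38071 bp from RBBP4, 55872 bp from EZH2 and 75538 bp from RBBP7. The highest JARID2 peak in the window was 165 bp from the nearest other one. Over all nuclear peaks the median of this distance was 16101 bp, so EZH1 was close to the median, JARID2 far below it and the other 5 genes above it. Within 1 Mb of the start, EZH1 had 78 peaks, RBBP4 62, EZH2 41, SUZ12 35, EED 23, JARID2 19 and RBBP7 10. The median nuclear peak had 29 others within 1 Mb of its midpoint. By that count from the midpoint, the EZH1 peak had 77 others (percentile 95.1) and the RBBP7 peak 9 (percentile 7.36). These percentiles give the share of nuclear peaks with no more others, ties included. EZH1 thus lay toward the crowded end and RBBP7 toward the sparse end.

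In 5 of 7 genes (EZH2, EZH1, EED, RBBP4 and RBBP7) no peak within 100 kb of the start scored higher than the gene's own, whereas 31.2% of all nuclear peaks were the highest within that distance. Within 500 kb this held for RBBP7 alone, 1 of 7 genes, against 8.62% of nuclear peaks. Within 1 Mb it held for 0 of 7, against 4.55%. These shares cover nuclear peaks of every score, and a peak with a high score is more easily the highest nearby. Being the highest within 100 kb is therefore no result apart from the scores. Distances were taken from the start for the genes but between peak midpoints for the shares. Within 500 kb, 1 peak scored higher near EZH2, EED and RBBP4 each, 2 near EZH1 and JARID2 each, and 6 near SUZ12. Within 1 Mb, 1 peak scored higher near EZH2, RBBP4 and RBBP7 each, 3 near EZH1 and EED each, 4 near JARID2 and 10 near SUZ12. The peak next to SUZ12, 35.0 kb upstream, scored 128 (percentile 92.9), above the SUZ12 peak itself. The upstream neighbour of SUZ12 in the RefSeq gene order is UTP6, but that peak was not matched to a gene. Near EED, the next peak was 30.2 kb downstream and scored 109 (percentile 89.8). Near JARID2 the median score of the 19 peaks within 1 Mb was 10.4, against 20.5 to 40.8 around the other 6 genes.

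**Figure D5:**
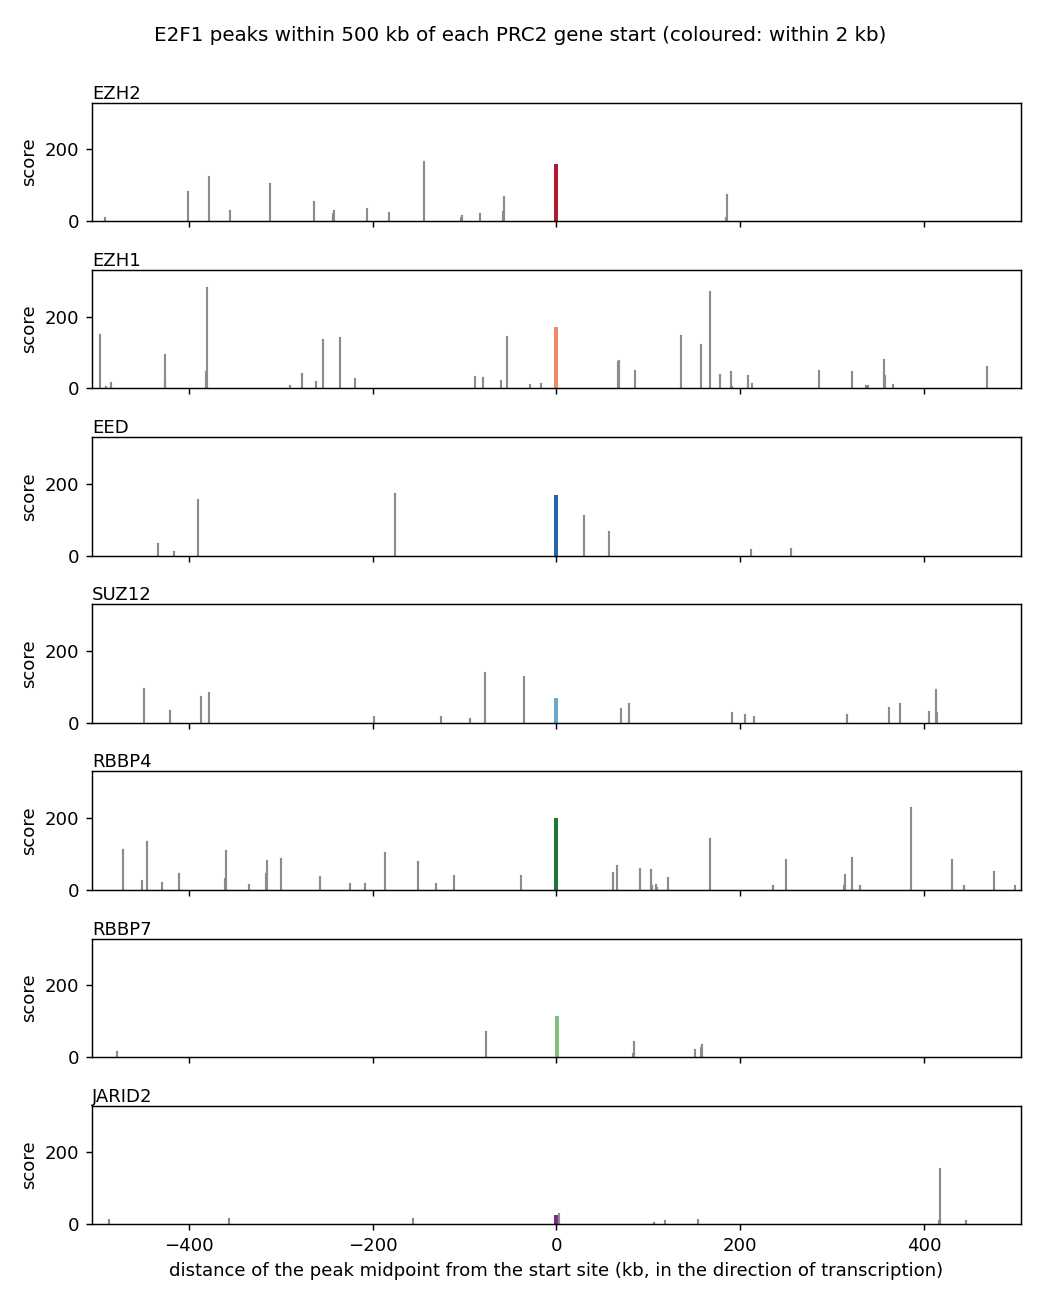
Score (y axis, the authors' value) of every E2F1 peak within 500 kb of the start of each PRC2 gene, by distance of the peak midpoint in kb along the direction of transcription (x axis); coloured lines are peaks within 2 kb of the start and grey lines all others. The coloured line is the highest of its panel for RBBP7 alone, 1 or 2 grey lines exceed it for EZH2, EZH1, EED and RBBP4, and the coloured JARID2 lines are short, while a grey line near the right edge of that panel is taller.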

How the data were processed

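E2F1 ChIP-seq peaks of 1 LNCaP-abl library were used; the input sample served only to describe the design. The submitters' processing notes name the build hg19 and the tools CASAVA 1.6.0, Bowtie and MACS2 2.0.9. The roles of these tools, the threshold for peaks and whether the input was a control were not given in the sources used here. A BED list with position, name and a score per peak was deposited by the authors; the scale of the score deposited by the authors is not stated, and read depth is unknown. A score can depend on local background, width and mappability as well as on signal. Starts were converted to 1-based positions.

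Peaks overlapping the window by at least 1 base were taken at start sites given with the rule for choosing the genes, not from an annotation. No hg19 annotation was used here, so exons and introns are not stated. Percentiles count peaks with no higher score. Gene strand, promoters and neighbours came from RefSeq tables of GRCh38.p14, which were not converted to hg19. All 7 members are named, and neighbours are the nearest gene on each side or a start on the opposite strand. Members and lists were chosen with earlier results of these data known. Python 3.11.15, pandas 2.3.3, numpy 2.4.6, scipy 1.17.1 and matplotlib 3.10.9 were used. Window, coverage and percentile functions were tested on simulated data. Alternatives were windows of 1 and 5 kb, midpoint in place of overlap, the top 50% and top 10% of peaks, the nearest peak, and percentiles within the chromosome or at the same width.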

Additional observations from a re-analysis of the deposited data

How the results depend on the processing

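The count of genes with a peak stayed at 7 with windows of 1 or 5 kb and with the peak midpoint in place of overlap. It was 6 in the top 50% of peaks by score, where JARID2 had none, and 4 in the top 10%, where SUZ12, RBBP7 and JARID2 had none; a smaller set of peaks can only lower this count. The median percentile of 95.5 stayed the same with the nearest peak and with both other windows, was 95.1 within the chromosome and was 87.5 at the same width. A single-gene percentile counted as moved if it left an exact binomial interval around its main value, computed over the 28734 peaks. That interval is narrow and measures no spread between libraries, so small shifts count. RBBP4, for example, went from 97.9 to 97.6 within the chromosome. Of 35 values of single genes under an alternative, 16 moved. These were all 14 percentiles taken within the chromosome or at the same width, and 2 of 21 under another peak or window, both for JARID2, from 45.6 to 21.9 with the nearest peak and to 55.4 with a window of 5 kb. At the same width the percentile of SUZ12 went from 76.6 to 43.9 and that of JARID2 from 45.6 to 15.9. No paired analysis was possible because peaks were analysed in a single library. Leaving out a replicate was not possible for the same reason. With 1 library and no read counts, differences of score between genes have no error, and what depth limits is unknown.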
